A study of Mus musculus with 6 samples.

Results

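The genes described here encode the thiol-based and related antioxidant enzymes of mouse embryonic stem (ES) cells. They comprise the enzymes that make and recycle glutathione, the glutathione peroxidases and transferases, the peroxiredoxins, the thioredoxins and glutaredoxins with their reductases, the superoxide dismutases, catalase, and NRF2 with its repressor and a pair of its targets. Members were chosen by a rule on gene symbols, and 63 of the 23244 loci listed per library matched. RNA was sequenced in 3 libraries of a subcloned Zscan10-null ES cell line and in 3 libraries of ES cells that carry floxed, undeleted Zscan10. Zscan10 encodes a SCAN-domain zinc-finger protein, and in induced pluripotent stem cells from aged donors its low level has been linked to excess glutathione, which is the background for looking at these enzymes. The floxed line was built with the Cre-loxP system for inducible deletion and was measured with the gene intact, whereas the null cells had lost it constitutively. They are a subclone, so clone and genotype cannot be told apart. The titles of the floxed control libraries also carry the mark -Tx, which those of the null libraries lack, and any treatment it stands for cannot be told apart from genotype either. No label ties the 3 libraries of either genotype to separate cultures, so p-values measure the spread between these libraries, which may be technical.

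Glutathione is made by glutamate-cysteine ligase and then glutathione synthetase, and its oxidized form is returned to the thiol by glutathione reductase with NADPH. Peroxidases and peroxiredoxins spend the reducing power of glutathione or thioredoxin on peroxides, and transferases couple glutathione to electrophiles. Superoxide dismutases make hydrogen peroxide from superoxide, and catalase breaks hydrogen peroxide down. Several of these enzymes are selenoproteins, in which a UGA codon inside the coding sequence is read as selenocysteine, the residue that does the catalysis.

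Among the members, GENCODE M21 annotates a selenocysteine codon in 7 genes, namely Gpx1, Gpx2, Gpx3, Gpx4, Txnrd1, Txnrd2 and Txnrd3. The codons of the 5 that the results turn on are shown because, among genes that share this feature, Gpx1 rose, Gpx2, Gpx3 and Txnrd1 fell and Gpx4 did not pass. Each line gives 27 bases of the coding strand, 5′ to 3′, read from the GENCODE M21 transcripts, with the selenocysteine codon in capitals and its mm10 position. The codon is number 47 of the coding sequence in Gpx1, 40 in Gpx2, 73 in Gpx3 and 129 in the Gpx4 transcript read. In Txnrd1 it is number 612, the last but one before the stop codon.
Gpx1, chr9:108339451-108339453, plus strand: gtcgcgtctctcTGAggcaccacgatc
Gpx2, chr12:76795256-76795258, minus strand: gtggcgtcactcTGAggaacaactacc
Gpx3, chr11:54907256-54907258, plus strand: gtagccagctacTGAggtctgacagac
Gpx4, chr10:80054737-80054739, plus strand: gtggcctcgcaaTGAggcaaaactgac
Txnrd1, chr10:82896037-82896039, plus strand: cagtctggctgcTGAggttaagcccca

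Zscan10, the deleted gene, was at 5.49, 4.43 and 5.47 FPKM in null libraries 1 to 3, against 44.2, 43.0 and 41.9 FPKM in floxed control libraries 1 to 3 (FPKM, fragments scaled to transcript length and to the number of mapped fragments). On the log2 scale it differed by -2.85 (SE 0.08), and the exact two-sided permutation p of 0.1 is the smallest that 3 against 3 libraries allow. FPKM summed to between 664555 and 678200 in null libraries and to between 685905 and 699401 in control libraries. Depth, read from the smallest increments between values, was 0.986 to 1.09 times that of control library 1 in all libraries. The 8 ES cell markers summed to 2257 to 2459 FPKM in null libraries, against 2506 to 2539.8 FPKM in control libraries, with 2 of 8 lower in null. Markers of feeder fibroblasts summed to 4.18 to 4.65 FPKM in null and 4.54 to 5.35 FPKM in control libraries, with 1 of 1 tested marker higher. Primitive endoderm markers summed to 3.7 to 5.26 FPKM in null and 5.35 to 6.83 FPKM in control libraries, with 0 of 2 tested markers called. Trophectoderm markers summed to 55.8 to 69.5 FPKM in null and 48.6 to 54.7 FPKM in control libraries, with 3 of 5 higher. The 8 markers of the 2-cell-like state, a rare ES cell state, summed to 75.9 to 102 FPKM in null and 36.3 to 40.3 FPKM in control libraries, with 6 of 7 tested markers higher. For comparison, over all tested loci 12.8% were called higher and 12.4% lower in null cells. No marker of these lists was at 0 in all 6 libraries, and the part of the marker differences in the results below was not tested. In bulk RNA, fewer cells of a type and less RNA per cell cannot be told apart.

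Of the 63 members, 59 had a value above 0 in some library and 53 reached the minimum mean of 1 FPKM over the 6 libraries that the test required. At an adjusted p under 0.05 in limma, fitted over all loci, 8 members were higher and 10 were lower in null cells. That is 34.0% of the tested members, against 25.2% of all 11480 tested loci. The members higher in null made up 15.1%, against 12.8% of all tested loci, and those lower 18.9%, against 12.4%. The share of higher members lies near that of all loci, and in 28 members (52.8%), against 44.1% of all tested loci, every null library lay on the same side of every control library. Changes were small, with a median absolute log2 fold change of 0.17 over the members and 0.14 over all tested loci, and 13 of the 18 called members lay under 0.5. The called members Gpx2 and Gstt3 had a null mean under 1 FPKM and reached the minimum through their control libraries. The median log2 fold change was -0.06 over the members, against -0.003 over all tested loci. The count of higher members was 5 without null library 3 and also without control library 1, 2 or 3, and the count of lower members was 5 without control library 2. Quantile normalization ended the calls of Prdx1, Glrx3, Sod2, Gpx8 and Gstm4. Testing without a minimum ended those of Prdx1, Glrx3, Gpx8 and Gstm4, and eBayes without a trend those of Prdx1, Glrx3 and Sod2.

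**Figure D1:**
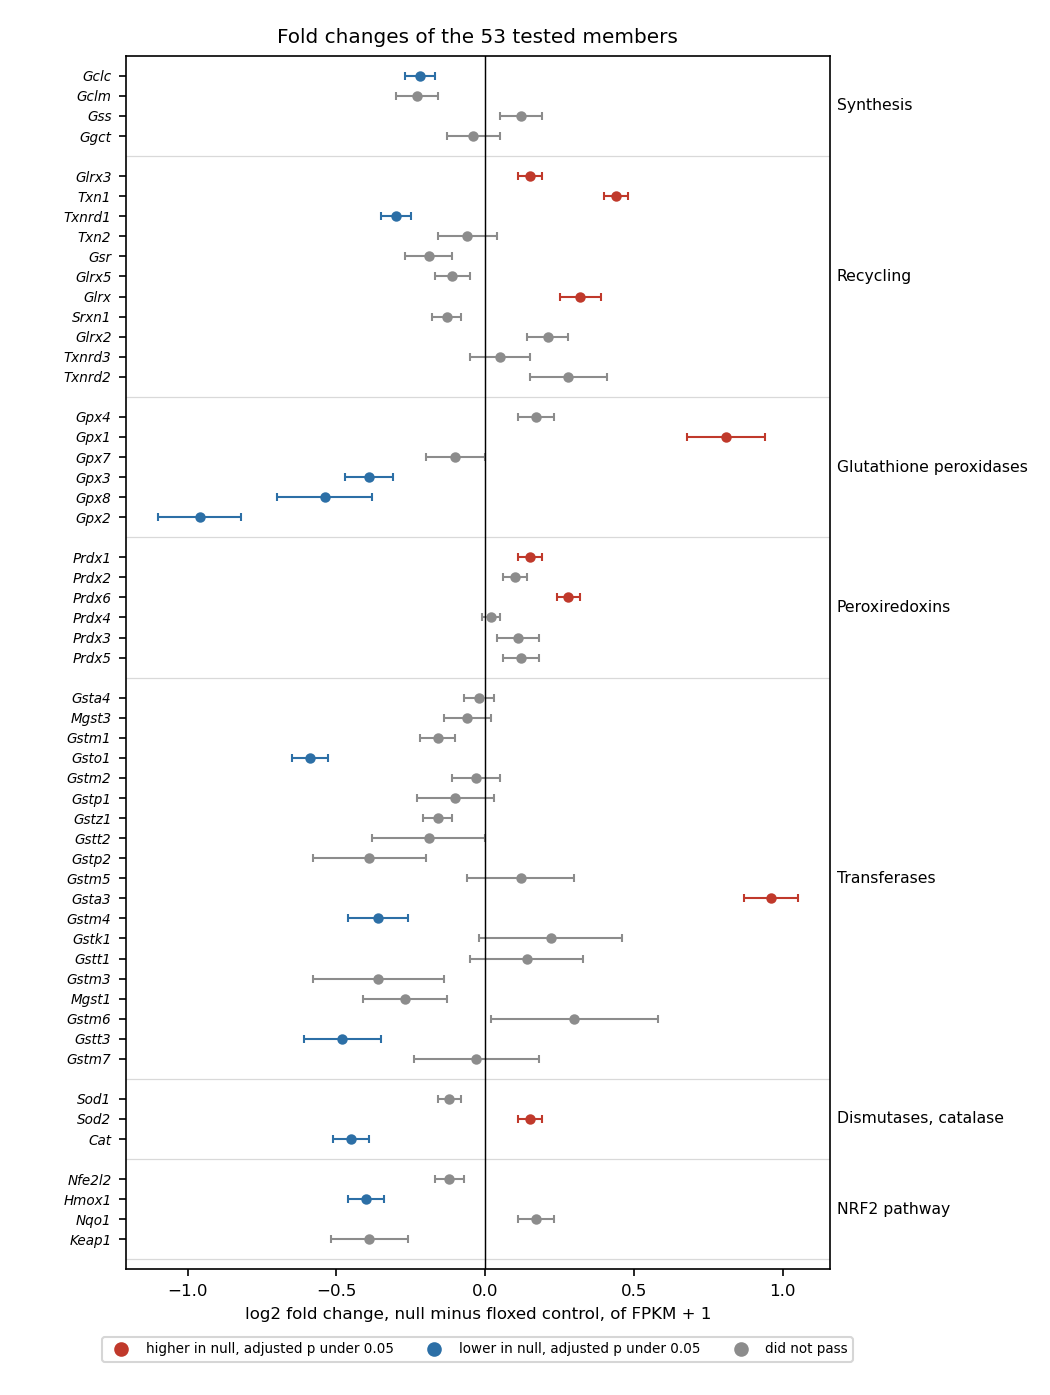
Log2 fold change (null minus floxed control, of FPKM + 1) of the 53 tested members, one row per gene, grouped by role, with points for the limma estimate and bars for its SE. The 8 members that rose lie to the right and the 10 that fell to the left, from 0.96 for Gsta3 down to -0.96 for Gpx2, and most other members lie close to 0.

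Summed over all 63 members, which is possible because FPKM is per length, the level was 4583, 4742 and 4795 FPKM in null libraries, against 4392, 4379.5 and 4282 FPKM in control libraries. The null libraries were all above the control libraries. The sum was taken from the values as deposited, without scaling between libraries, and was not repeated in any alternative. A few abundant genes made up most of this sum. The 8 with the highest mean were, in order, Prdx1, Gpx4, Sod1, Gsta4, Prdx2, Glrx3, Txn1 and Gpx1, and together they held 80.7% ± 0.666 in null and 78.2% ± 0.277 in control libraries (SD, n = 3 each). Among these 8 the order differed little between groups. Sod1 and Gsta4 exchanged ranks 3 and 4, and Txn1 and Gpx1 exchanged ranks 7 and 8. Peroxiredoxins took 33.0% ± 0.0389 of the sum in null and 32.5% ± 0.547 in control libraries, and glutathione peroxidases took 22.7% ± 1.45 in null and 19.7% ± 0.61 in control libraries. The transferases, with 24 of the 63 members, held 12.3% ± 0.683 in null and 13.8% ± 0.134 in control libraries. The genes of glutathione synthesis and turnover held 1.3% ± 0.0436 in null and 1.55% ± 0.0372 in control libraries.

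**Figure D2:**
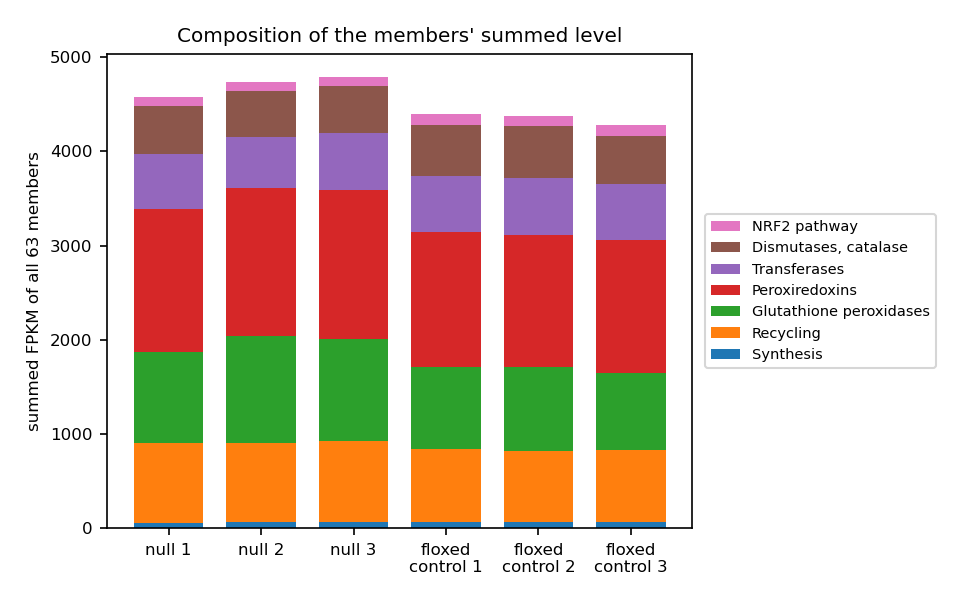
Summed FPKM of all 63 members in each library (y axis from 0), with the colours of the stacked bars giving the role of the genes. The null bars reach 4583 to 4795 FPKM and the floxed control bars 4282 to 4392 FPKM. The recycling, glutathione peroxidase and peroxiredoxin segments are taller in null libraries. Values are as deposited, without scaling between libraries.

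Of the 4 genes of glutathione synthesis and turnover, 0 were higher and 1 was lower in null cells. The share called was 25.0%, near the 25.2% of all tested loci. Gclc, the catalytic subunit of glutamate-cysteine ligase, the rate-limiting enzyme (chromosome 9, 77754535 to 77794489), was at 22.6, 23.8 and 25.0 FPKM in null libraries, against 27.5, 28.2 and 28.0 FPKM in control libraries. The groups did not overlap. Gclc fell by 0.22 on the log2 scale (SE 0.05, adjusted p = 0.0162), a call that was lost without control library 2 (adjusted p = 0.0601) or 3 (0.0515). Gclm, the modifier subunit that raises the activity of Gclc, was at 18.4, 21.1 and 17.2 FPKM in null libraries, against 22.2, 22.0 and 22.4 FPKM in control libraries. Its groups did not overlap either, but with a log2 fold change of -0.23 it did not pass (SE 0.07, adjusted p = 0.0568). Gclm passed with quantile normalization (adjusted p = 0.0439) and without null library 2 (0.0136). The Gclc to Gclm ratio was 1.27 ± 0.166 in null and 1.26 ± 0.022 in control libraries (SD, n = 3 each), and the groups overlapped.

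Gss, glutathione synthetase, which joins glycine in the second step, was at 11.1, 12.5 and 12.8 FPKM in null libraries, against 11.4, 11.1 and 10.7 FPKM in control libraries. The groups overlapped and Gss did not pass (log2 fold change 0.12, 95% interval -0.04 to 0.27, adjusted p = 0.226). In GENCODE M21, exons of Gss share 395 bases with Acss2 on the other strand, and since use of strand is not stated, fragments of the overlap could count for either. Ggct, which breaks down gamma-glutamyl dipeptides, was at 5.79 to 6.44 FPKM in null and 5.81 to 7.19 FPKM in control libraries (log2 fold change -0.04, adjusted p = 0.785).

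Of the 11 recycling genes, 3 were higher and 1 lower in null cells (36.4% called, against 25.2% of all tested loci). Txn1, the cytosolic thioredoxin that reduces peroxiredoxins and other protein disulfides (chromosome 4, 57943373 to 57956411), was at 270.0, 282 and 282 FPKM in null libraries, against 212, 201 and 202 FPKM in control libraries. All null libraries were above all control libraries, and the libraries of each group lay close together. Txn1 rose 1.35-fold, with a log2 fold change of 0.44 (SE 0.04) and an adjusted p of 5.97e-04, the smallest of the members. Txnrd1, the cytosolic selenoprotein that reduces thioredoxin with NADPH (chromosome 10, 82833951 to 82897724), went the other way. It was at 62.1, 61.7 and 69.1 FPKM in null libraries, against 80.0, 77.2 and 80.3 FPKM in control libraries. Txnrd1 fell by 0.30 on the log2 scale (SE 0.05, adjusted p = 0.00662). The Txn1 to Txnrd1 ratio of FPKM was 4.34, 4.57 and 4.07 in null libraries, against 2.66, 2.6 and 2.52 in control libraries.

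Glrx, the cytosolic glutaredoxin that removes glutathione from proteins, was at 22.7, 22.4 and 20.0 FPKM in null libraries, against 17.9, 17.6 and 16.0 FPKM in control libraries. Glrx rose 1.27-fold (log2 fold change 0.32, SE 0.07, adjusted p = 0.0134), with no overlap between groups. Glrx3, a monothiol glutaredoxin of iron handling and the most abundant recycling gene, was at 326, 304 and 334 FPKM in null libraries, against 296, 284 and 289.7 FPKM in control libraries. Its rise of 1.11-fold (log2 fold change 0.15, SE 0.04, adjusted p = 0.0435) was lost without null library 1 or 3 or without control library 1, 2 or 3 (adjusted p = 0.0784 to 0.136).

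The remaining 7 recycling genes did not pass. Gsr, glutathione reductase, was at 45.2, 52.0 and 57.7 FPKM in null libraries, against 59.5, 59.6 and 56.6 FPKM in control libraries. Null library 3 lay inside the control range and null library 1 lay lowest (log2 fold change -0.19, SE 0.08, adjusted p = 0.141, and 0.0425 without null library 3). Txn2, the mitochondrial thioredoxin, was at 58.7, 59.1 and 45.9 FPKM in null libraries, against 53.8, 56.6 and 59.0 FPKM in control libraries (log2 fold change -0.06, adjusted p = 0.695), and null library 3 stood apart. Txnrd2, the mitochondrial thioredoxin reductase, corresponded to 41, 46 and 33 fragments in null libraries, against 23, 37 and 32 in control libraries, as the steps of its values show (log2 fold change 0.28, adjusted p = 0.153). Srxn1, Glrx2, Glrx5 and Txnrd3 had log2 fold changes between -0.13 and 0.21 and adjusted p-values of 0.0557 to 0.753.

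Of the 6 tested glutathione peroxidase genes, 1 was higher and 3 were lower in null cells (66.7% called, against 25.2% of all tested loci). Of the 3, Gpx2 reached the minimum of the test through its control libraries, and Gpx3 and Gpx8 lost their calls in some alternatives. Gpx1, the cytosolic peroxidase that clears hydrogen peroxide (chromosome 9, 108339080 to 108340342), was at 240.4, 329.6 and 348 FPKM in null libraries, against 174, 169.9 and 170.3 FPKM in control libraries. All null libraries were above all control libraries, but null library 1 was well below the other two, while the control libraries lay close together. Gpx1 rose 1.79-fold, with a log2 fold change of 0.81 (SE 0.13, adjusted p = 0.00429). Gpx4, which reduces lipid peroxides in membranes and guards against ferroptosis, was the most abundant of the family, at 719, 802 and 731 FPKM in null libraries, against 673, 701 and 632 FPKM in control libraries. The groups did not overlap, but Gpx4 did not pass (log2 fold change 0.17, SE 0.06, adjusted p = 0.0688). It passed with libraries rescaled to a common total (adjusted p = 0.0308) and with median centring (0.0438). The Gpx1 to Gpx4 ratio was 0.335, 0.411 and 0.476 in null libraries, against 0.258, 0.242 and 0.269 in control libraries.

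Gpx2, the peroxidase best known from the gut epithelium (chromosome 12, 76792335 to 76795554), was low in all libraries. It was at 0.99, 1.02 and 0.977 FPKM in null libraries, against 3.62, 2.94 and 2.24 FPKM in control libraries. The steps of these values correspond to 7, 8 and 7 fragments in null libraries, against 26, 23 and 16 fragments in control libraries. The null mean was 0.339 of the control mean, and the log2 fold change was -0.96 (SE 0.14, adjusted p = 0.00312), a scale on which the pseudocount of 1 shrinks the change of so low a gene. Gpx2-ps1, a pseudogene copy on chromosome 7, stayed at 0 to 2 fragments in every library. Gpx3, the secreted plasma peroxidase, was at 5.01, 5.10 and 4.39 FPKM in null libraries, against 6.49, 7.22 and 6.15 FPKM in control libraries, and fell by 0.39 on the log2 scale (SE 0.08, adjusted p = 0.0159). Its call was lost without control library 2 (adjusted p = 0.0578).

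Gpx7 and Gpx8 lack selenocysteine and act in the endoplasmic reticulum. Gpx8 was at 1.95, 1.63 and 1.19 FPKM in null libraries, against 3.11, 3.13 and 2.08 FPKM in control libraries, or 13, 12 and 8 fragments in null, against 21, 23 and 14 in control. The fall of 0.54 on the log2 scale (SE 0.16, adjusted p = 0.0433) was lost without null library 2 or 3 and without control library 1 or 2 (adjusted p = 0.0893 to 0.132). Gpx7 was at 6.52, 5.12 and 5.12 FPKM in null libraries, against 6.55, 5.68 and 5.86 FPKM in control libraries, and did not pass (log2 fold change -0.10, adjusted p = 0.507). Gpx5 was listed at 0 in all libraries. Gpx6, which acts in olfactory epithelium, corresponded to 1 or 2 fragments in null libraries and 2 to 5 in control libraries.

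**Figure D3:**
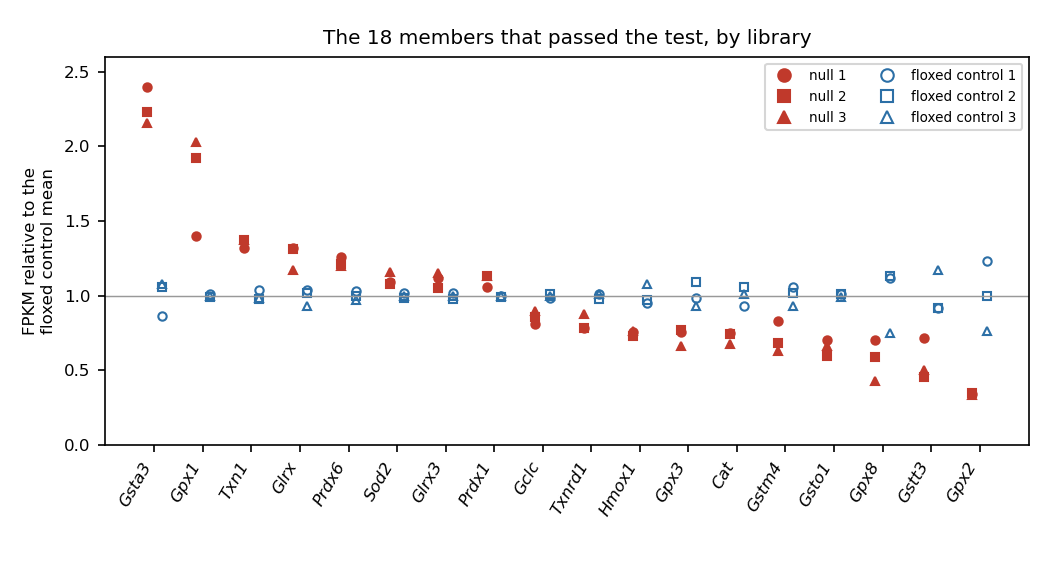
FPKM of the 18 members that passed the test, divided by the floxed control mean of each gene (y axis, linear from 0), with filled symbols for the 3 null libraries and open symbols for the 3 floxed control libraries. Gsta3 and Gpx1 stand highest in null libraries and Gpx2 lowest, at a mean of 0.339 of control, and for Gpx1 null library 1 lies below the other null libraries.

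Peroxiredoxins, thiol peroxidases without selenium, had positive log2 fold changes for 6 of 6 tested genes, with a median of 0.12. The median over all tested loci was -0.003, and the share of positive changes over all loci was not counted. The changes of the 6 genes ran from 0.02 for Prdx4 to 0.28 for Prdx6. Of the 6, 2 passed, both higher in null cells (33.3% called, against 25.2% of all tested loci). With quantile normalization the sign of Prdx4 flipped, to -0.03. Prdx6, which uses glutathione to reduce oxidized phospholipids (chromosome 1, 161240112 to 161251210), was at 95.8, 92.3 and 91.3 FPKM in null libraries, against 78.5, 76.4 and 74.0 FPKM in control libraries. The null libraries all lay above the control libraries, and Prdx6 rose 1.22-fold (log2 fold change 0.28, SE 0.04, adjusted p = 0.0028). Prdx1, the most abundant member of all, was at 919, 976 and 979 FPKM in null libraries, against 867, 859 and 868 FPKM in control libraries. Its rise of 1.11-fold (log2 fold change 0.15, SE 0.04, adjusted p = 0.0246) was lost without null library 2 or 3 or without control library 1, 2 or 3 (adjusted p = 0.0556 to 0.0866).

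Prdx2, the other abundant cytosolic peroxiredoxin, was at 341, 354 and 361 FPKM in null libraries, against 340.4, 318 and 330 FPKM in control libraries. Its lowest null library lay just above its highest control library, and Prdx2 did not pass (log2 fold change 0.10, adjusted p = 0.117). Its exons share 173 bases with Junb and 177 with Rnaseh2a, both on the other strand, and Rnaseh2a was higher in null cells (log2 fold change 0.14, adjusted p = 0.0255). Prdx4, the peroxiredoxin of the endoplasmic reticulum, was at 59.5, 59.3 and 58.6 FPKM in null libraries, against 58.9, 58.9 and 56.9 FPKM in control libraries. This gave a log2 fold change of 0.02 with a 95% interval of -0.06 to 0.10. The mitochondrial genes Prdx3 and Prdx5 had log2 fold changes of 0.11 and 0.12 (adjusted p = 0.297 and 0.158). Prdx6b was listed at 0.

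The transferases were the largest group, with 24 genes, of which 19 were tested. Of these, 1 was higher and 3 were lower in null cells (21.1% called, against 25.2% of all tested loci). Of the 3, Gstt3 reached the minimum of the test through its control libraries. Gsta3, an alpha-class transferase (chromosome 1, 21240565 to 21265575), was at 6.98, 6.49 and 6.27 FPKM in null libraries, against 2.50, 3.07 and 3.14 FPKM in control libraries. This corresponded to 33, 34 and 30 fragments in null, against 12, 16 and 15 fragments in control libraries, with no overlap. Gsta3 rose 2.27-fold, the largest rise among the members, with a log2 fold change of 0.96 (SE 0.09, adjusted p = 8.13e-04). Gsta4, the alpha-class enzyme that conjugates the lipid peroxidation product 4-hydroxynonenal, was far more abundant, at 418, 388 and 443 FPKM in null libraries, against 424, 423 and 414 FPKM in control libraries. Gsta4 did not pass, and its log2 fold change of -0.02 had a 95% interval of -0.13 to 0.10. Gsta1 and Gsta2 were listed at 0.

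Gsto1, an omega-class transferase with thiol-reducing activity (chromosome 19, 47854973 to 47864790), was at 18.5, 15.6 and 17.5 FPKM in null libraries, against 26.5, 26.5 and 26.0 FPKM in control libraries. The groups were well apart, and Gsto1 fell to 0.653 of the control mean (log2 fold change -0.59, SE 0.06, adjusted p = 0.0013). Gstt3, a theta-class gene, was at 1.24, 0.789 and 0.863 FPKM in null libraries, against 1.58, 1.58 and 2.02 FPKM in control libraries, or 17, 12 and 12 fragments in null, against 22, 24 and 28 in control. Its fall of 0.48 on the log2 scale (SE 0.13, adjusted p = 0.0308) was lost without null library 2 or 3 and without control library 1, 2 or 3 (adjusted p = 0.0626 to 0.0946). Gstt3 is the single called member that shares exon bases with another annotated gene, 524 bases with Gm20441 on the same strand. Gstm4, of the mu class, was at 2.66, 2.18 and 2.0 FPKM in null libraries, against 3.39, 3.25 and 2.97 FPKM in control libraries. The fall of 0.36 on the log2 scale (SE 0.10, adjusted p = 0.0375) was lost under the same 5 omissions (adjusted p = 0.0628 to 0.112).

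The mu-class genes lie together on chromosome 3, and such close copies can share reads, so their single values are uncertain. Summed over the 7 Gstm genes, the level was 59.9, 54.5 and 55.6 FPKM in null libraries, against 57.3, 62.0 and 62.7 FPKM in control libraries, and the groups overlapped. The pi-class copies Gstp1 and Gstp2 are neighbours on chromosome 19, and their sum was 27.3, 23.4 and 21.2 FPKM in null libraries, against 31.1, 29.2 and 23.2 FPKM in control libraries, again with overlap. Mgst3, a microsomal transferase, was at 32.2, 29.0 and 30.9 FPKM in null libraries, against 30.1, 36.4 and 30.2 FPKM in control libraries (log2 fold change -0.06, adjusted p = 0.606). The other tested transferases that did not pass had log2 fold changes between -0.39 and 0.30. Low genes of this class varied between libraries of one group, such as Gstm7 at 5, 18 and 10 fragments in null libraries and 10, 10 and 12 in control libraries.

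**Figure D4:**
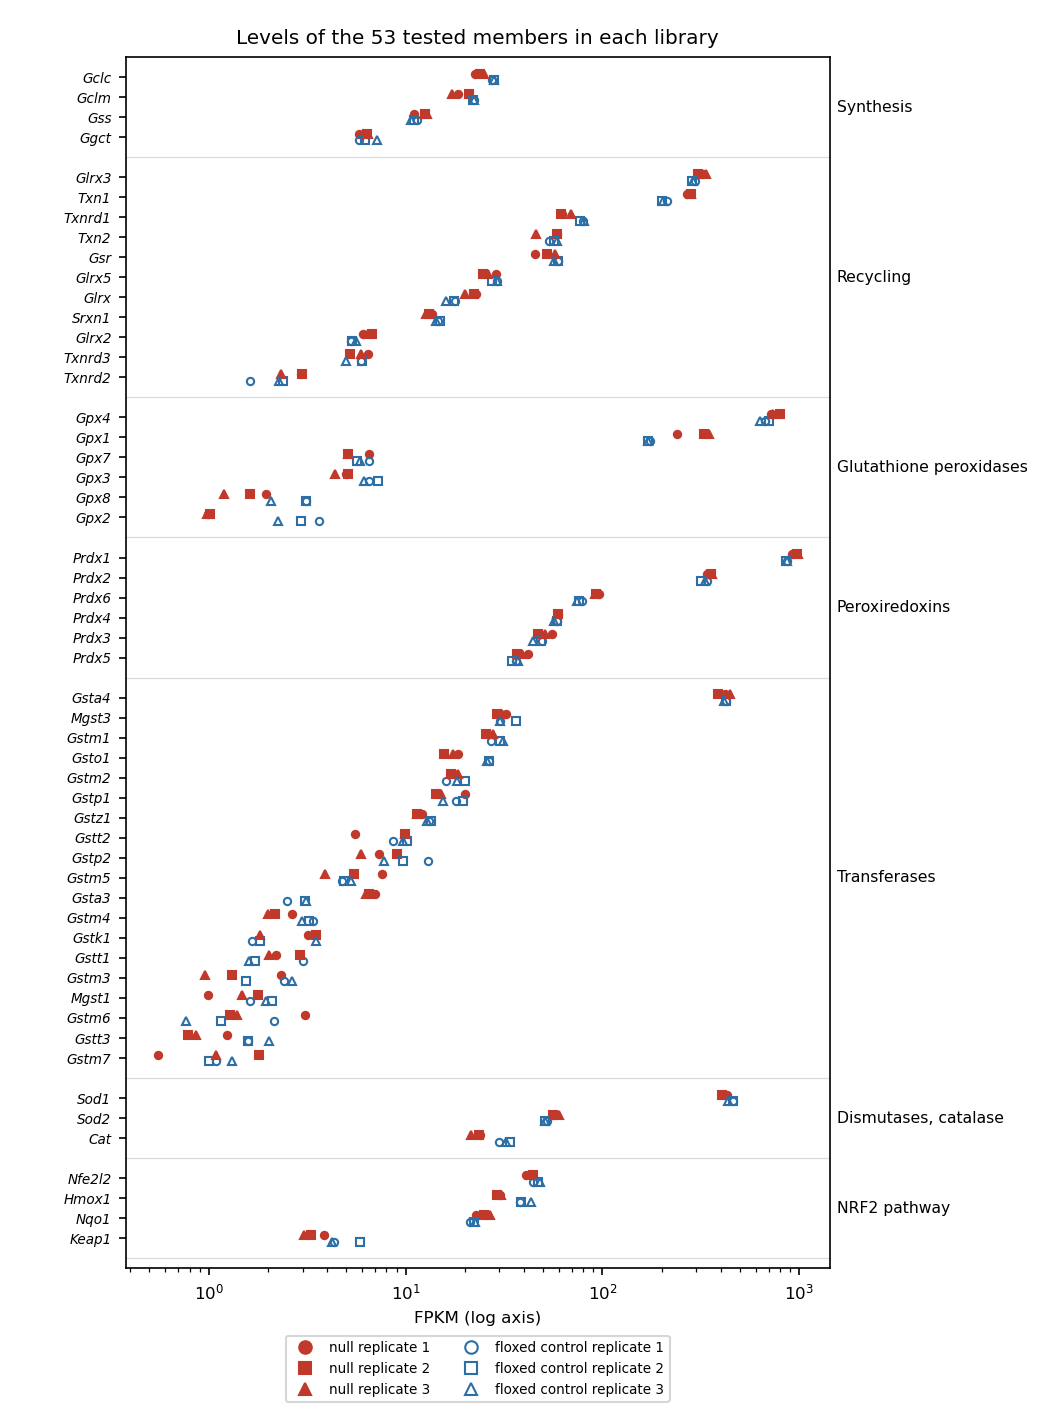
FPKM (log axis) of the 53 tested members in each library, grouped by role and sorted by mean, with filled symbols for null and open symbols for floxed control libraries. In null libraries, Prdx1 stands highest, at 919 to 979 FPKM, and the spread between libraries is widest for the low transferases.

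Of the 3 tested genes for superoxide dismutases and catalase, 1 was higher and 1 lower in null cells (66.7% called, against 25.2% of all tested loci). Cat, the peroxisomal catalase (chromosome 2, 103453904 to 103485153), was at 23.8, 23.7 and 21.6 FPKM in null libraries, against 29.7, 33.8 and 32.2 FPKM in control libraries. The groups did not overlap, and Cat fell to 0.723 of the control mean (log2 fold change -0.45, SE 0.06, adjusted p = 0.00301). Sod2, the mitochondrial manganese dismutase, was at 56.3, 55.8 and 59.9 FPKM in null libraries, against 52.5, 50.8 and 51.3 FPKM in control libraries. Its rise of 1.11-fold (log2 fold change 0.15, SE 0.04, adjusted p = 0.0348) was lost without null library 3 and without control library 1, 2 or 3 (adjusted p = 0.0735 to 0.111). Sod1, the cytosolic copper-zinc dismutase, was at 429, 404 and 415 FPKM in null libraries, against 459, 463 and 432 FPKM in control libraries. Sod1 did not overlap between groups but did not pass (log2 fold change -0.12, SE 0.04, adjusted p = 0.0777). It passed with quantile normalization, with a log2 fold change of -0.24 (adjusted p = 0.00941), and without control library 3 (adjusted p = 0.0498). Sod3, the extracellular form, corresponded to 1, 0 and 1 fragments in null libraries and to 0 in control libraries.

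NRF2, encoded by Nfe2l2, is the transcription factor that drives many of these genes under oxidative stress, and Keap1 encodes the adaptor that marks it for degradation. Of the 4 tested genes of this group, 0 were higher and 1 was lower in null cells. That is 25.0% called, near the 25.2% of all tested loci. Nfe2l2 was at 41.1, 44.5 and 43.1 FPKM in null libraries, against 44.6, 47.0 and 48.4 FPKM in control libraries (log2 fold change -0.12, SE 0.05, adjusted p = 0.114). Keap1 was at 3.85, 3.30 and 3.05 FPKM in null libraries, against 4.35, 5.86 and 4.21 FPKM in control libraries (log2 fold change -0.39, adjusted p = 0.0587). Neither overlapped between groups, as was so for 44.1% of all tested loci, and neither passed. Hmox1, heme oxygenase 1 (chromosome 8, 75093618 to 75100593), was at 30.3, 29.2 and 30.6 FPKM in null libraries, against 38.0, 38.8 and 43.4 FPKM in control libraries, and fell to 0.749 of the control mean (log2 fold change -0.40, SE 0.06, adjusted p = 0.00326). Nqo1, a quinone reductase, was at 22.9, 25.0 and 26.9 FPKM in null libraries, against 21.2, 22.3 and 22.6 FPKM in control libraries, and did not pass (log2 fold change 0.17, adjusted p = 0.0951, and 0.0301 without null library 1).

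NRF2 binds the antioxidant response element, whose core TGACNNNGC was searched on both strands of RefSeq promoters (GRCm38.p6, 250 bases before to 50 after the annotated start). Promoters were found for 54 members, and 11 of them (20.4%) held the core, against 14.0% of 27025 genes. Among members higher in null it was in 2 of 7 with a promoter, among those lower in 1 of 8, and among tested members that did not pass in 8 of 32. No promoter was found for the called members Prdx6, which rose, and Hmox1 and Gclc, which fell. Sequence outside these windows was not searched. For Txnrd1, which has 3 annotated start windows, 1 of the 3 held the core. The promoters of the 3 called members with the core are shown 5′ to 3′ on the strand of the gene, with the core, in either orientation, in capitals, because these genes differ in direction while sharing it. Gsta3 and Prdx1 rose and Txnrd1 fell. Such a match is a run of letters and does not show binding.
Gsta3, chr1:21240335-21240634, plus strand: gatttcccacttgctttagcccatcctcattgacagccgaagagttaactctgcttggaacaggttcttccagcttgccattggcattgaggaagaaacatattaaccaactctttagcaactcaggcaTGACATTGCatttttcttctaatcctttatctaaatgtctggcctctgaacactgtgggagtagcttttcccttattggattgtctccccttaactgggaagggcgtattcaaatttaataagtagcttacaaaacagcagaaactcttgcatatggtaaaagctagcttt
Prdx1, chr4:116685349-116685648, plus strand: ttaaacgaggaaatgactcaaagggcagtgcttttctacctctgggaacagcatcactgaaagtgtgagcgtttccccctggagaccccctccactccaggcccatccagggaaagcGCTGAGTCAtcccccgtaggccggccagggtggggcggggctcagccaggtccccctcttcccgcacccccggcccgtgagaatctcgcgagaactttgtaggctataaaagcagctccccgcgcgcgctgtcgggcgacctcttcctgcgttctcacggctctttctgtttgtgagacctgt
Txnrd1, chr10:82858956-82859255, plus strand: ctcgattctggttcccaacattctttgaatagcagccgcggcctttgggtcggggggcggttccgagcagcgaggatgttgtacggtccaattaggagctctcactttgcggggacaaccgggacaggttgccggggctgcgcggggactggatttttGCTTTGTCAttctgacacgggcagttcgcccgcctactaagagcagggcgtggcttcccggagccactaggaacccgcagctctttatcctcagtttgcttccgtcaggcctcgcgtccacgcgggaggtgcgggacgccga

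The wider pathway was described by lists of genes outside the members. In the list of NRF2 regulators and other targets, 2 of 17 tested genes were higher and 6 lower in null cells (47.1% called, against 25.2% of all tested loci, median log2 fold change -0.17). Cbr3, a carbonyl reductase, was at 4.68, 3.65 and 4.50 FPKM in null libraries, against 7.37, 7.34 and 7.40 FPKM in control libraries (log2 fold change -0.67, adjusted p = 0.00252). Abcc1, an exporter of glutathione conjugates, averaged 7.41 ± 0.228 FPKM in null and 9.25 ± 0.445 FPKM in control libraries (adjusted p = 0.0151), a call lost without control library 1 or 2 (adjusted p = 0.0583 to 0.0587). Cul3, the ubiquitin ligase scaffold that works with Keap1, averaged 82.6 ± 2.98 FPKM in null and 73.0 ± 1.7 FPKM in control libraries (adjusted p = 0.0193). The Cul3 call was lost without null library 3 and without control library 1 or 2 (adjusted p = 0.0535 to 0.0719).

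In the list for cysteine supply and glutathione turnover, 3 of 10 tested genes were higher and 4 lower (70.0% called, against 25.2% of all tested loci). Both enzymes of transsulfuration, which makes cysteine from homocysteine, were called, in opposite directions. Cbs, the first enzyme, was at 9.18, 7.54 and 7.46 FPKM in null libraries, against 5.92, 4.96 and 5.39 FPKM in control libraries (log2 fold change 0.49, adjusted p = 0.0108). Cth, the second enzyme, was at 17.7, 14.4 and 14.7 FPKM in null libraries, against 22.0, 20.6 and 20.7 FPKM in control libraries (log2 fold change -0.42, adjusted p = 0.00985). Oplah, which returns 5-oxoproline to glutamate, averaged 3.91 ± 0.0897 FPKM in null and 2.74 ± 0.278 FPKM in control libraries (adjusted p = 0.0145), and Cndp2, a dipeptidase, averaged 36.5 ± 3.08 FPKM in null and 28.8 ± 1.35 FPKM in control libraries (adjusted p = 0.0131). Slc7a11, the cystine transporter, was under the minimum of the test, at 0.323, 0.279 and 0.199 FPKM in null libraries, against 0.637, 0.463 and 0.493 FPKM in control libraries.

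In the NADPH supply list, 1 of 13 tested genes was higher and 4 were lower in null cells (38.5% called, against 25.2% of all tested loci). Aldh1l2, the mitochondrial folate enzyme, was at 0.937, 0.583 and 0.617 FPKM in null libraries, against 1.77, 2.0 and 2.0 FPKM in control libraries (log2 fold change -0.78, adjusted p = 0.00371), and it reached the minimum of the test through the control libraries. Me1, the cytosolic malic enzyme, averaged 3.08 ± 0.263 FPKM in null and 4.88 ± 0.315 FPKM in control libraries (log2 fold change -0.53, adjusted p = 0.00475). G6pdx, the entry enzyme of the pentose phosphate pathway, did not pass (log2 fold change -0.09, adjusted p = 0.242). Among 20 tested genes of other thioredoxin-fold proteins and methionine sulfoxide reductases, 2 were higher and 3 lower (25.0% called), a share near the 25.2% of all tested loci. Msrb2, a mitochondrial methionine sulfoxide reductase, was at 15.7, 16.8 and 18.2 FPKM in null libraries, against 10.7, 9.5 and 10.6 FPKM in control libraries (log2 fold change 0.66, adjusted p = 0.00136). Sesn1, a sestrin, averaged 9.15 ± 0.805 FPKM in null and 6.16 ± 0.173 FPKM in control libraries (adjusted p = 0.00376). Txndc5, a disulfide isomerase of the endoplasmic reticulum, averaged 28.5 ± 2.41 FPKM in null and 36.5 ± 0.746 FPKM in control libraries (adjusted p = 0.00748).

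The genes annotated with a selenocysteine codon, members and listed genes together, numbered 19, of which 17 were tested, 4 were higher and 4 lower in null cells (47.1% called, against 25.2% of all tested loci, median log2 fold change 0.05). Selenot, Selenof and Selenoo were not matched by symbol and are not analysed here. Selenop, the secreted selenium carrier, which the files list under its older symbol Sepp1, was at 9.34, 14.2 and 14.6 FPKM in null libraries, against 4.79, 5.05 and 6.53 FPKM in control libraries (log2 fold change 1.07, adjusted p = 0.00515). Selenoh, a nuclear selenoprotein listed as 2700094K13Rik, was at 119, 160.2 and 163 FPKM in null libraries, against 85.2, 80.0 and 84.3 FPKM in control libraries (log2 fold change 0.80, adjusted p = 0.00324). For both genes, all null libraries were above all control libraries, and null library 1 was the lowest of the null libraries. Dio3, a deiodinase, averaged 1.55 ± 0.594 FPKM in null and 0.509 ± 0.253 FPKM in control libraries (adjusted p = 0.0303), a call lost without control library 1, 2 or 3 (adjusted p = 0.0557 to 0.0831). Dio3 reached the minimum of the test through the null libraries, and Gpx2 through the control libraries. The 4 that fell were Gpx2, Gpx3, Txnrd1 and Selenos, listed as Vimp, at 14.0, 11.7 and 13.8 FPKM in null libraries, against 15.6, 17.2 and 16.5 FPKM in control libraries (adjusted p = 0.0262). The Selenos call was lost without control library 2 or 3 (adjusted p = 0.0734 to 0.0902). Of the genes that build selenoproteins, Eefsec, the selenocysteine elongation factor, averaged 10.1 ± 0.812 FPKM in null and 13.2 ± 0.793 FPKM in control libraries (adjusted p = 0.0137, and 0.0515 without control library 2), while Secisbp2, Sepsecs and Pstk did not pass.

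**Figure D5:**
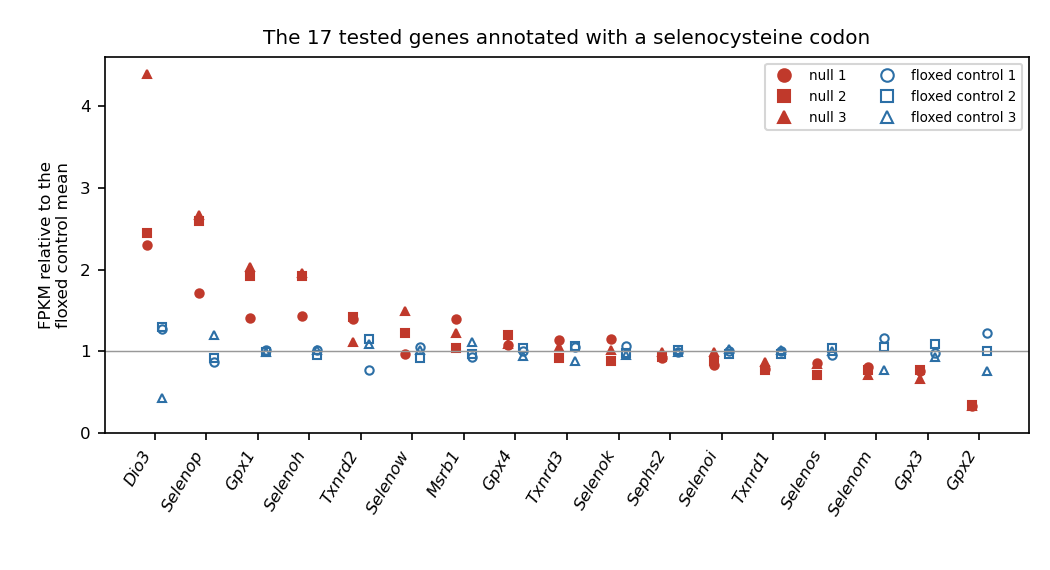
FPKM of the 17 tested genes with an annotated selenocysteine codon, divided by the floxed control mean of each gene (y axis, linear from 0), with filled symbols for null and open symbols for floxed control libraries. Dio3, Selenop, Gpx1 and Selenoh lie above all their control symbols in null libraries, with null library 1 lowest for each of these 4. For Dio3, null libraries 1 and 2 were close, at 16 and 19 fragments. Over all called loci, null library 1 was the null library nearest the control mean for 44.8%. Gpx2 lies lowest, at a mean of 0.339.

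Spread within groups was similar for the members and for all loci. The SD of log2(FPKM + 1) was larger in null libraries for 60.4% of the tested members, against 59.2% of all tested loci. Its median over the members was 0.097 in null and 0.0756 in control libraries. Of the 18 called members, null library 1 was the null library nearest the control mean for 8, null library 2 for 4 and null library 3 for 6. Over all called loci the shares were 44.8%, 28.9% and 26.3%, so that of null library 1 is near that of the members. Without null library 1, Gpx1 had a log2 fold change of 0.98 (adjusted p = 1.22e-04). Over all 14 alternatives its log2 fold change ran from 0.71 to 0.98, with limma adjusted p-values up to 0.0204.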

How the data were processed

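RNA from mouse ES cells, depleted of ribosomal RNA, was sequenced in 3 null and 3 floxed control libraries, per the labels' protocols. Trim Galore, FastQC, TopHat, Cuffdiff and build mm10 are named in the submitters' processing notes, but no version or role of any of them is given in these sources. The deposited values, 1 per locus and library, were taken as FPKM made by the authors: no label or header states the unit, but values are not whole and totals differ between libraries. Any scaling between libraries by the authors, and any use of strand in counting, is likewise not recorded there.

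Null was compared with floxed control on log2(FPKM + 1) by limma 3.58.1 (R 4.3.3, trended eBayes). The fit took the 11480 loci whose mean reached 1 FPKM, null minus floxed control, with no covariate and Benjamini-Hochberg adjustment over all loci at 0.05. The fit was also run on simulated data, with an outcome not reported here. Fold changes understate changes of low genes, and ratios of means carry no pseudocount. Each ± is the SD of 3 libraries.

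Raw counts were not used here. Relative depth came from the steps between values under 0.15 FPKM. A gene's fragments were given where its 6 values, times depth, were whole multiples of 1 step within 0.08 fragments, which held for 17 members. At these depths, low genes rest on few fragments.

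Positions are from RefSeq (GRCm38.p6, which is mm10), and overlaps and selenocysteine codons from GENCODE M21. Full values are given for members past the threshold and for the 2 most abundant others of each role, and for up to 3 genes per direction of each further list. The members and lists were chosen with earlier results of these data known. Same-numbered libraries of the 2 groups were not treated as pairs.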

Additional observations from a re-analysis of the deposited data

How the results depend on the processing

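Over 14 alternatives, the 18 called members kept their direction in every one in which they were tested, and 10 of them stayed past the threshold throughout: Hmox1, Gpx1, Gpx2, Prdx6, Glrx, Txn1, Txnrd1, Cat, Gsta3 and Gsto1. The other 8 lost their call in at least 1 alternative. The cause was not tested. Leaving out each library in turn gave 5 to 9 members higher, 5 to 11 lower and 1719 to 2914 loci called in all; without control library 2 the counts were 5, 5 and 1719. Of the named members that did not pass, 5 passed somewhere, as given beside them for Gclm, Gsr, Gpx4, Sod1 and Nqo1 (for Gpx4 also with the replicate block, adjusted p = 0.0448). The sign flipped for Gsta4 with libraries rescaled to a common total (0.03), with median centring (0.01) and without null library 2 (0.03; without null library 3, -0.06), for Prdx4 with quantile normalization (-0.03), for Txn2 without null library 3 (0.06; without null library 2, -0.12) and for Mgst3 without control library 2 (0.03; without control library 1, -0.11). The replicate block gave 6 members higher, 9 lower and 2264 loci called. Under it the calls of Prdx1, Glrx3, Sod2 and Gstt3 among the members were lost. The deviations of same-numbered libraries correlated at -0.002, 0.108 and 0.053, within the -0.222 to 0.163 of all null and control pairs. The labels give the number no meaning, and with 3 libraries per group such correlations cannot decide whether the libraries were paired. Without a minimum, 18476 loci were tested and 6 members were higher and 8 lower. Of the 26 genes that the naming rule takes from the other lists, 12 stayed past the threshold throughout and 0 reversed. Depth limits the low genes: Gpx2 rests on 22 fragments in all null libraries together and 65 in control libraries.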

Other observations

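The other genes that the naming rule takes from the further lists are given here by their means. Mthfd2, a mitochondrial folate enzyme, averaged 48.5 ± 10.2 FPKM in null and 68.1 ± 1.68 FPKM in control libraries (SD, n = 3 each). Its call (limma adjusted p = 0.0291) was lost without null library 2 or 3 and without control library 1, 2 or 3 (adjusted p = 0.0522 to 0.0825). Idh1, the cytosolic NADPH-making isocitrate dehydrogenase, averaged 42.1 ± 0.688 FPKM in null and 36.8 ± 1.11 FPKM in control libraries (adjusted p = 0.0142), lost without control library 1 or 2 (0.0534 to 0.0576). Chac1, which degrades glutathione, averaged 11.4 ± 2.54 FPKM in null and 18.3 ± 1.45 FPKM in control libraries (adjusted p = 0.0154), lost without control library 1 or 2 (0.0527 to 0.0541). Ftl1, the ferritin light chain, averaged 2679 ± 194 FPKM in null and 3142 ± 51.8 FPKM in control libraries (adjusted p = 0.0212), lost without null library 1 or 3 and without control library 1, 2 or 3 (0.0523 to 0.0688). Txnip, which binds and inhibits thioredoxin, averaged 106 ± 10.6 FPKM in null and 130.2 ± 4.79 FPKM in control libraries (adjusted p = 0.0219), lost without null library 3 and without control library 1 or 2 (0.0678 to 0.072). Further calls were those of Mpst (8.29 ± 1.01 FPKM in null and 10.3 ± 0.4 FPKM in control libraries), Txndc17 (44.3 ± 1.28 FPKM in null and 49.7 ± 1.32 FPKM in control libraries), Sephs1 (20.9 ± 0.341 FPKM in null and 23.5 ± 0.294 FPKM in control libraries) and the locus of Tkt with Mir3076 (184 ± 1.93 FPKM in null and 164 ± 7.51 FPKM in control libraries). The calls of these 4 were each lost in at least 4 of the 6 runs that left out a library.

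Selenow, a further small selenoprotein listed as Sepw1, was at 38.2, 48.1 and 59.1 FPKM in null libraries, against 41.7, 36.5 and 40.0 FPKM in control libraries, and did not pass (log2 fold change 0.27, adjusted p = 0.199). Selenow was chosen after its values were seen.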
